A study of Homo sapiens with 4 samples.

Results

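The 43 genes described here are interferon-stimulated genes, chosen by symbol from a list of known members and found as 43 Ensembl gene rows among the 58736 features of each deposited table. RNA came from HEK293A, an established human embryonic kidney epithelial line that carries adenoviral E1 genes. Every well received 1 µg of FEN1 plasmid, which supplies a flap endonuclease, and 500 pmol of DNA probes 48 h later, so both groups carry the nuclease and both were exposed to foreign DNA. RNA collection is recorded at 72 h for every library. The negative control was represented by 2 libraries (replicates 1 and 3) and the probe named NT1_hp2 by 2 libraries (replicates 2 and 3). No untransfected cells are among these libraries, and the sequence of neither probe is given in the sources used here. The study asked how hairpin-forming DNA probes that direct FEN1 affect gene expression, and for these genes the comparison is whether their mRNA differed between the probes. The labels do not state whether replicates were separate cultures. Each p-value rests on the spread within groups of 2 libraries, which the test combines with the spread of all tested genes. That spread may therefore be technical. In bulk RNA a lower level can mean fewer expressing cells or less RNA in each, and these cannot be told apart here.

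Interferons are secreted antiviral proteins. Type I and type III interferons bind cell surface receptors whose kinases, JAK1 and TYK2, phosphorylate transcription factors, among them STAT2. STAT2 acts with IRF9 in ISGF3, the factor that binds the interferon-stimulated response element (ISRE) in promoters and switches on antiviral genes. Cytosolic DNA and RNA can start the same programme by inducing interferon, which makes these genes a customary readout in cells that are given nucleic acids. Many members also have a basal level without interferon.

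The libraries held 12506203 to 14908687 reads assigned to annotated genes. Keratin and mesenchymal markers of the line were abundant, with KRT8 at 84.2 to 112 FPKM (reads corrected for exon length and sequencing depth) and VIM at 98.3 to 110 FPKM, whereas EPCAM, CDH1, PAX2 and PAX8 stayed under 1 FPKM. The 10 blood cell markers summed to 2.02 and 2.21 FPKM in the control libraries and 1.72 and 1.55 FPKM in the NT1_hp2 libraries. Among them PTPRC, CD3E, LILRA4 and HBB were at 0. The 3 endothelial markers summed to at most 0.376 FPKM and the 4 fibroblast markers to 10.1 to 10.6 FPKM. Mitochondrial transcripts took 6.06% and 5.92% of reads in negative control libraries, and 4.33% and 4.29% in NT1_hp2 libraries. KRT18 was the 1 of 6 expressed line markers that differed, beside 13.9% of all tested genes. It was at 77.7 and 68.8 FPKM in control and 54.4 and 55.4 FPKM in NT1_hp2 libraries (log2 change −0.41, limma adjusted p = 0.0440). The part of these differences in the results below was not tested.

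Promoters of the members are shown first because the ISRE is what most of them share. RefSeq (GRCh38.p14) gave a window from 250 bases before to 50 after a transcription start for 36 of the 43 genes. The ISRE core was searched as GAAA, any 2 bases, GAAA on both strands, overlapping matches included. It occurred in 24 of these 36 genes (66.7%), against 1195 of 27305 genes (4.38%) in the whole table, counting any window of a gene. The lines below give stretches around the core, in capitals, 5′ to 3′ on the strand of the gene, so that capitals with TTTC mark a core on the opposite strand. The first 4 belong to genes that were lower in NT1_hp2, PARP14 was higher, ISG15 and IFIT1 did not pass the test, and ISG20 was expressed too weakly to be tested.
IFI6 (chr1:27672261-27672363, minus strand): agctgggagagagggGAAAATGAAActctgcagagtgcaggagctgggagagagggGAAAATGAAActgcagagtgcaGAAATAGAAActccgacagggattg
IFITM3 (chr11:320871-320927, minus strand): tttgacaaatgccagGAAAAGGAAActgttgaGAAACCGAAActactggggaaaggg
LGALS3BP (chr17:78979957-78979996, minus strand): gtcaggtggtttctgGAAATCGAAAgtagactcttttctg
TAP1 (chr6:32853808-32853853, minus strand): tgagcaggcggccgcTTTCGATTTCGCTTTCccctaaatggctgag
PARP14 (chr3:122680795-122680834, plus strand): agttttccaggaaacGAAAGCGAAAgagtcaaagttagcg
ISG15 (chr1:1013369-1013414, plus strand): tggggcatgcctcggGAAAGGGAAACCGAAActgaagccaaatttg
IFIT1 (chr10:89392492-89392544, plus strand): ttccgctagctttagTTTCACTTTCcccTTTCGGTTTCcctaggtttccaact
ISG20 (chr15:88638932-88638971, plus strand): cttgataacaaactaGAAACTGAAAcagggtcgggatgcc

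IFI6 had 3 cores, the farthest beginning 156 bases before the start and the nearest 93 bases before it. In ISG15 and TAP1 a pair of cores overlapped. The core was found in 7 of the 8 members that changed between the groups (all but IFI35), in 14 of 22 expressed members that did not pass and have a window, and in 3 of 6 members under 1 FPKM that have one. A core thus occurred in the windows of genes that were lower, higher, not past the threshold and nearly unread, and a match describes letters in the window, not binding.

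Of the 43 members 33 were expressed, defined as a mean of at least 1 FPKM over the 4 libraries, 9 were below that with some reads, and 1 had no read. The plot of levels by library shows this range. Among the expressed members, 4 exceeded 20 FPKM, 19 were at 5 FPKM or more and 14 lay between 1 and 5 FPKM. The most abundant was LGALS3BP, which encodes a secreted galectin-binding glycoprotein. ADAR, the editing enzyme that converts adenosine to inosine in double-stranded RNA, came next at 30.3 and 32.9 FPKM in the negative control and 32.2 and 32.7 FPKM in NT1_hp2. It was followed by BST2 (tetherin, which holds budding virions at the cell surface) and IFITM1. The order below LGALS3BP is loose, since the ranges of ADAR, BST2 and IFITM1 over the 4 libraries overlap.

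**Figure D1:**
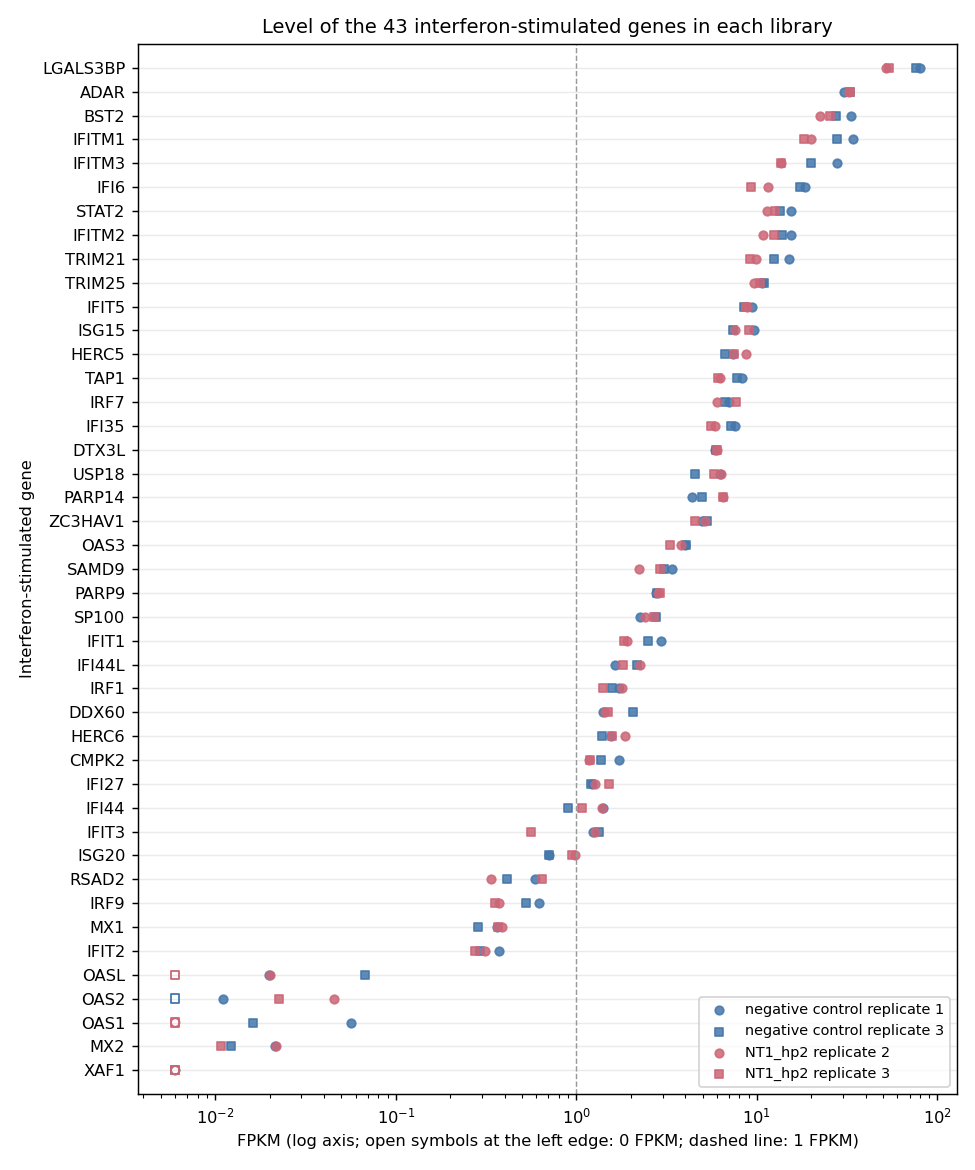
Level of each of the 43 genes in FPKM on a log axis, 1 point per library (blue, negative control; red, NT1_hp2), ordered by the mean; open symbols at the left edge stand for 0 and the dashed line for 1 FPKM. LGALS3BP leads at 52.0 to 80.2 FPKM, 33 genes have a mean of at least 1 FPKM, and XAF1 is at 0 in all 4 libraries.

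The members at the bottom included several that are known for strong induction by interferon. MX1, a dynamin-like GTPase that blocks influenza virus, had 45 and 31 reads with the negative control and 47 and 45 with NT1_hp2 (0.286 to 0.386 FPKM). Its relative MX2 had 4 and 2 reads in each group. Of the 2-5A synthetases, which make the second messenger for RNase L, OAS1 had 5 reads in the negative control and 0 in NT1_hp2, OAS2 had 1 and 6, and the catalytically inactive OASL had 4 and 1. These counts are too few to compare, as the NT1_hp2 to control ratio of OAS2 has a 95% exact binomial interval of 0.693 to 263. XAF1, a pro-apoptotic interferon target, had 0 reads in every library, which allows up to 3 reads in each.

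Low members with more reads could be compared by their counts, with intervals for counting error only. RSAD2 (viperin, an antiviral radical SAM enzyme) had 41 and 25 reads in control and 23 and 44 in NT1_hp2 libraries, so the groups overlapped, with a ratio of 0.966 (0.678 to 1.38). IFIT2, an RNA-binding tetratricopeptide protein gene, had 22 and 15 against 18 and 16 reads, a ratio of 0.875 (0.533 to 1.43). ISG20, a 3′ to 5′ exonuclease gene, had 75 and 65 reads in control and 102 and 99 in NT1_hp2 libraries, a ratio of 1.37 (1.10 to 1.71). IRF9, the DNA-binding subunit of ISGF3, had 34 and 25 reads against 20 and 19, a ratio of 0.629 (0.409 to 0.959). For ISG20 and IRF9 the groups did not overlap, as for 28.4% of all features under 1 FPKM with reads. In FPKM they also did not overlap for MX1, with a read ratio of 1.15 (0.841 to 1.58), or for OAS1 and OAS2. Of the 50-base words in IRF9 transcripts, 43.8% also occur in other genes, mostly in AL136295.5 on the same strand, so its reads are uncertain.

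Between the groups, 8 of the 33 expressed members differed, 7 of them lower in NT1_hp2 and 1 higher (limma, values as log2(FPKM + 1), a Benjamini-Hochberg adjusted p under 0.05, adjustment over 16362 tested genes). The same test called 13.9% of all tested genes and 24.2% of the tested members. By direction it called 8.92% of all genes lower and 5.0% higher, against 21.2% and 3.03% of the members. Every member is protein-coding, and among the 12149 protein-coding genes of the fit 10.8% were lower and 5.04% higher. The median log2 change of the members was −0.10, beside −0.0075 for all tested genes. The groups did not overlap in 21 of 33 members (63.6%), a share close to the 66.8% of all tested genes and below the 73.0% of protein-coding ones. An unadjusted p under 0.05 was reached by 12 members (36.4%) and by 37.0% of all tested genes. All 8 calls were among the 19 members at 5 FPKM or more, and the 14 members between 1 and 5 FPKM had none. The share of all genes called at these levels was not determined, and log2(FPKM + 1) understates changes of low genes.

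Among membrane, secreted and virus entry proteins 5 of 8 members fell, beside 8.92% of all tested genes and 10.8% of protein-coding ones. IFITM1, IFITM3, BST2 and IFI6 in this group have under 1500 bases of exon, a class in which 23.0% of protein-coding genes fell. The FPKM of all 8 members summed to 218.2 and 190.8 in the control libraries and to 137.9 and 140.4 in the NT1_hp2 libraries. Their median log2 change was −0.44. IFITM3 (ENSG00000142089, chromosome 11, 319669 to 327537), which blocks fusion of endocytosed viruses, had 27.6 and 19.9 FPKM in the negative control and 13.6 FPKM in both NT1_hp2 libraries. The control libraries were further apart from each other than the NT1_hp2 libraries, and the groups did not overlap. Its log2 change was −0.74 (SE 0.16, limma adjusted p = 0.0470). IFITM1 (ENSG00000185885, chromosome 11, 313506 to 315272), the plasma membrane relative, went from 33.9 and 27.6 FPKM to 19.996 and 18.3 FPKM, a log2 change of −0.65 (SE 0.11, limma adjusted p = 0.0376). IFITM2, the endosomal relative, was at 15.3 and 13.7 FPKM against 10.8 and 12.5 FPKM, and its log2 change of −0.30 did not pass (95% interval −0.55 to −0.043, limma adjusted p = 0.0999). The 3 genes are close copies on chromosome 11, and 32.0%, 34.3% and 35.2% of the 50-base words of IFITM1, IFITM2 and IFITM3 transcripts occur in other genes. The IFITM2 annotation reaches over the IFITM1 exons, and part of IFITM3 overlaps AC136475.5 on the other strand, so the division of reads among them is uncertain.

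IFI6 (ENSG00000126709, chromosome 1, 27666061 to 27672218, GRCh38), which encodes a mitochondrial and endoplasmic reticulum protein that restrains apoptosis and flavivirus replication, had 18.5 and 17.4 FPKM in the negative control and 11.5 and 9.28 FPKM in NT1_hp2. Its log2 change was −0.74 (SE 0.11, limma adjusted p = 0.0340), and no 50-base word of its transcripts occurs in another gene. Its relative IFI27 was much weaker, at 1.22 and 1.21 FPKM against 1.26 and 1.51 FPKM, with a log2 change of 0.11 (95% interval −0.32 to 0.54) that did not pass.

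LGALS3BP (ENSG00000108679, chromosome 17, 78971238 to 78980109) fell from 80.2 and 75.8 FPKM to 52.0 and 53.8 FPKM, a log2 change of −0.55 (SE 0.069, limma adjusted p = 0.0340). It rested on 7553 reads in the negative control and 5368 in NT1_hp2. TAP1 (ENSG00000168394, chromosome 6, 32845209 to 32853978), a subunit of the transporter that loads peptides onto MHC class I, fell from 8.28 and 7.79 FPKM to 6.25 and 6.11 FPKM (log2 change −0.33, SE 0.072, limma adjusted p = 0.0474). Its exons overlap PSMB8-AS1 on the other strand. BST2 had 33.1 and 27.3 FPKM in the negative control and 22.5 and 25.2 FPKM in NT1_hp2. Although its groups did not overlap, its log2 change of −0.32 did not pass (95% interval −0.62 to −0.027, limma adjusted p = 0.115).

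**Figure D2:**
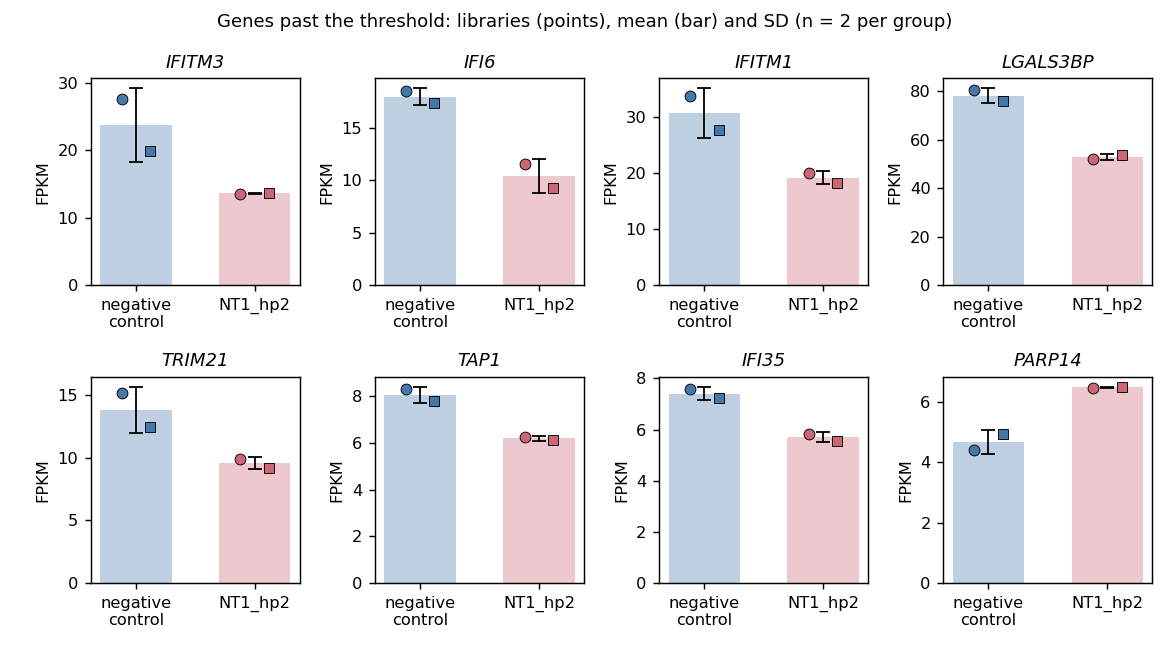
FPKM of the 8 genes that passed the threshold, with bars for the mean of 2 libraries per group, error bars for the SD and points for single libraries (circle, replicate 1 or 2; square, replicate 3). The NT1_hp2 libraries lie below both control libraries in 7 genes and above them in PARP14 (6.46 and 6.49 against 4.39 and 4.94 FPKM).

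Enzymes of ISG15 conjugation, ubiquitin and ADP-ribose transfer were all expressed, and 1 of 8 rose and 1 fell, beside 5.0% and 8.92% of all tested genes. PARP14 (ENSG00000173193, chromosome 3, 122680618 to 122730840), a macro-domain mono-ADP-ribosyltransferase, rose from 4.39 and 4.94 FPKM to 6.46 and 6.49 FPKM, a log2 change of 0.40 (SE 0.084, limma adjusted p = 0.0448). It was the only member that passed upward. The ADP-ribosyltransferase PARP9 and its ubiquitin ligase partner DTX3L share a divergent promoter, also on chromosome 3. They were at 2.77 to 2.92 and 5.89 to 6.00 FPKM. Their log2 changes were 0.036 (95% interval −0.20 to 0.27) and 0.017 (−0.16 to 0.20), and neither passed.

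TRIM21 (ENSG00000132109, chromosome 11, 4384897 to 4393696), a cytosolic antibody receptor and ubiquitin ligase, fell from 15.1 and 12.5 FPKM to 9.91 and 9.20 FPKM (log2 change −0.48, SE 0.11, limma adjusted p = 0.0489). TRIM25, the ligase that acts on RIG-I, was at 10.6 and 10.9 FPKM against 9.66 and 10.4 FPKM, with a log2 change of −0.10 that did not pass. ISG15, the ubiquitin-like modifier itself, had 9.67 and 7.36 FPKM in the negative control and 7.52 and 8.98 FPKM in NT1_hp2. The NT1_hp2 values lay between the control values, with a log2 change of −0.034 (95% interval −0.42 to 0.35). The ISG15 ligase HERC5 had 7.33 and 6.61 against 8.69 and 7.46 FPKM, and neither it (log2 change 0.19, limma adjusted p = 0.242) nor HERC6 (0.14) passed.

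None of the 4 tested regulators passed, beside 13.9% of all tested genes. STAT2, an ISGF3 subunit, had 15.4 and 13.5 FPKM in the negative control and 11.4 and 12.5 FPKM in NT1_hp2, without overlap, and its log2 change was −0.25 (95% interval −0.48 to −0.011, limma adjusted p = 0.124). IRF7, which amplifies type I interferon production, had 6.98 and 6.66 against 6.01 and 7.61 FPKM. IRF1, a factor induced mainly by interferon-gamma, had 1.73 and 1.58 against 1.80 and 1.40 FPKM. For both the groups overlapped, and the intervals of their log2 changes ran from −0.31 to 0.29 for IRF7 and from −0.42 to 0.36 for IRF1. IRF1 exons overlap C5orf56 on the other strand. USP18, a protease that removes ISG15 and restrains the type I receptor, had 6.23 and 4.56 against 6.29 and 5.79 FPKM and overlapped between groups, with 23.4% of its 50-base words in other genes, mostly USP41.

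RNA-binding effectors and 2-5A synthetases held 7 expressed members, and 0 passed, beside 13.9% of all tested genes. IFIT1, which binds RNA lacking host cap methylation, came nearest with 2.94 and 2.50 FPKM in the negative control and 1.92 and 1.83 FPKM in NT1_hp2. Its groups did not overlap and its log2 change was −0.37 (95% interval −0.67 to −0.066, limma adjusted p = 0.0926). IFIT3, its partner, had 1.24 and 1.33 against 1.26 and 0.560 FPKM, so that 1 NT1_hp2 library was low and the other was not. IFIT5 was at 8.45 to 9.38 FPKM over all 4 libraries, and ADAR had a log2 change of 0.039 (95% interval −0.14 to 0.22). OAS3, the 2-5A synthetase that was expressed, had 4.02 and 4.04 against 3.82 and 3.31 FPKM. ZC3HAV1 (the zinc-finger antiviral protein ZAP) and DDX60 (a helicase) overlapped between groups.

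Among the remaining effectors 1 of 6 tested members passed, beside 13.9% of all tested genes. It was IFI35 (ENSG00000068079, chromosome 17, 43006725 to 43014456), a leucine-zipper protein gene, with 7.60 and 7.22 FPKM in the negative control and 5.85 and 5.57 FPKM in NT1_hp2. Its log2 change was −0.33 (SE 0.073), and its limma adjusted p of 0.049998 lies at the threshold. SP100, a nuclear body protein gene, was at 2.24 to 2.75 FPKM, and IFI44 and IFI44L also overlapped between groups. SAMD9, a translation restrictor, and CMPK2, a nucleotide kinase gene next to RSAD2, were lower in both NT1_hp2 libraries without passing (log2 changes −0.25 and −0.22). CMPK2 and RSAD2 share exonic bases on opposite strands. Over all 25 tested members that did not pass, log2 changes ran from −0.37 to 0.19, and 17 of the 33 tested members lay within 0.15 of 0.

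**Figure D3:**
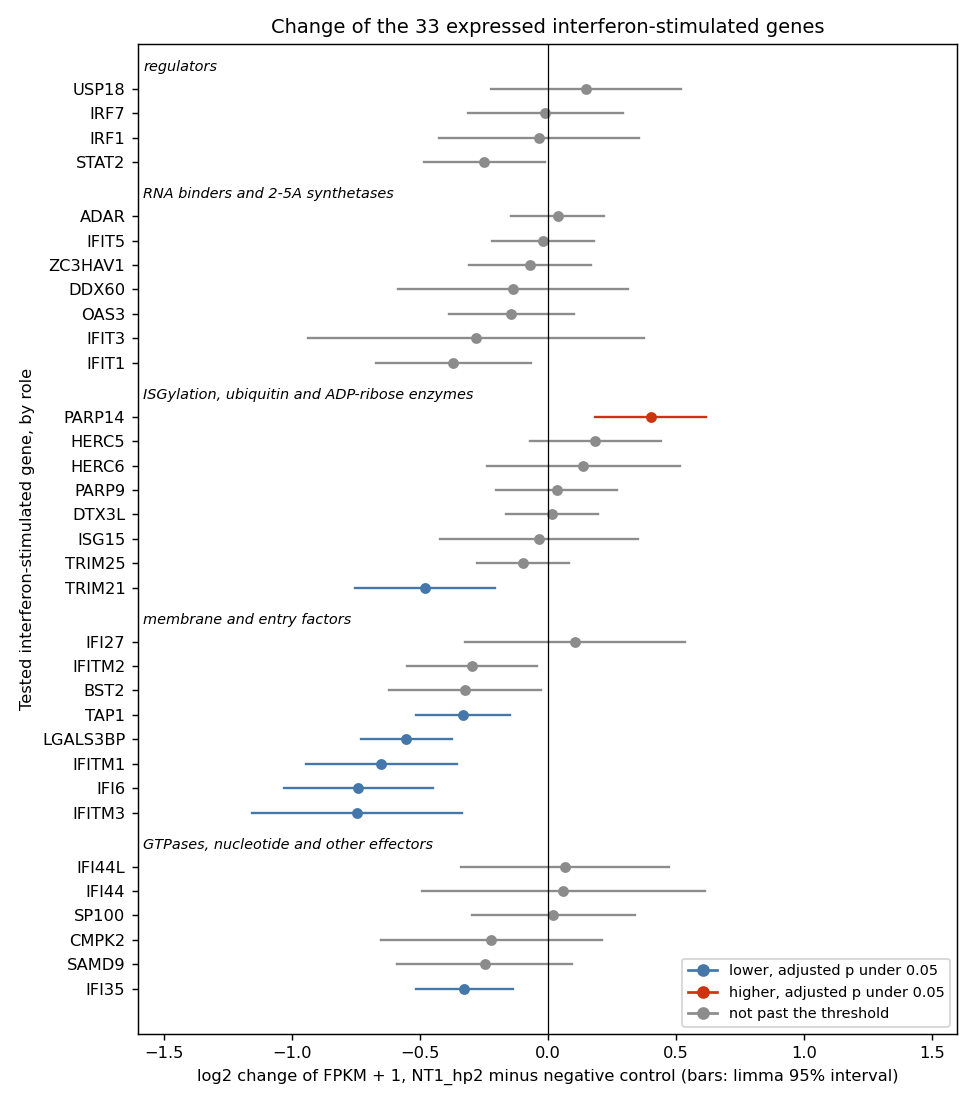
Log2 change of FPKM + 1 (NT1_hp2 minus negative control) of the 33 tested genes by role, with limma's 95% interval as bars. The 7 blue genes fell and PARP14 (red) rose, beside 8.92% and 5.0% of all tested genes, and grey genes did not pass.

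The signalling genes upstream were examined from lists chosen with earlier results of these data known. Of 22 interferon ligand genes 0 were expressed, 16 had no read in any library, IFNB1 and all 13 IFNA genes on the list among them, and 6 had traces of at most 0.279 FPKM. Receptor, kinase and STAT genes were expressed in 9 of 11 cases, with IFNGR1 higher and TYK2 lower, 1 of 9 in each direction beside 5.0% and 8.92% of all tested genes. TYK2 fell from 21.0 and 19.2 FPKM to 13.5 and 13.4 FPKM (log2 change −0.55, SE 0.070, limma adjusted p = 0.0340). IFNGR1, a chain of the interferon-gamma receptor, rose from 9.86 FPKM in both control libraries to 12.7 and 12.4 FPKM (log2 change 0.32, SE 0.062, limma adjusted p = 0.0412). IFNAR1, a chain of the type I receptor, was at 6.23 to 7.16 FPKM and IFNAR2, the other chain, at 0.0903 to 0.614 FPKM. JAK1 had 15.2 and 16.4 against 18.1 and 17.2 FPKM and did not pass, with a log2 change of 0.15.

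Of 9 tested signalling brakes, PTPN11, which encodes the phosphatase SHP2, rose, and the inhibitors SOCS3 and PIAS4 fell, beside 5.0% of all tested genes higher and 8.92% lower. The limma adjusted p of PIAS4, 0.04995, lies at the threshold. SOCS3 had 6.91 and 6.14 FPKM in the negative control and 4.61 and 4.35 FPKM in NT1_hp2. Among 40 tested interferon-inducible genes outside the 43, 2 rose and 5 fell, near the 5.0% and 8.92% of all tested genes, with a median log2 change of 0.0057. GCH1, the first enzyme of tetrahydrobiopterin synthesis, and the nucleotidase NT5C3A rose, with log2 changes of 0.60 and 0.44. TAPBP, the peptide-loading protein tapasin, LAP3, TMEM140, CNP and the helicase MOV10 fell, with log2 changes of −0.37 to −0.55. CXCL10, a chemokine typical of an interferon response, had 0.709 and 0.541 FPKM in the negative control and 1.32 and 2.10 FPKM in NT1_hp2. Its groups did not overlap, and its log2 change of 0.73 did not pass (SE 0.23, limma adjusted p = 0.0939). It rested on 12 and 8 reads against 22 and 35, a ratio of 2.71 (95% exact binomial interval 1.61 to 4.77), which log2(FPKM + 1) understates. The 26 genes of this list under 1 FPKM with reads were not tested, and their read ratios went in both directions.

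Summed exon length, taken over all annotated transcripts of a gene, moved with these differences. It can far exceed the length of 1 transcript, as for IFI27, with 4147 bases against 725 in its principal transcript. The 7 members that fell had summed exon lengths of 865 to 4805 bases (median 1929), the 25 that did not pass had a median of 5793, and PARP14 had 10495. Over all tested protein-coding genes the median log2 change was −0.27 below 1500 bases, −0.20 from 1500 to 3000, −0.070 from 3000 to 6000 and 0.072 at 6000 or more, as the plot against exon length shows. The share called lower went from 23.0% in the shortest class to 4.98% in the longest. In the shortest class 3 of 5 members fell, with a median of −0.65.

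**Figure D4:**
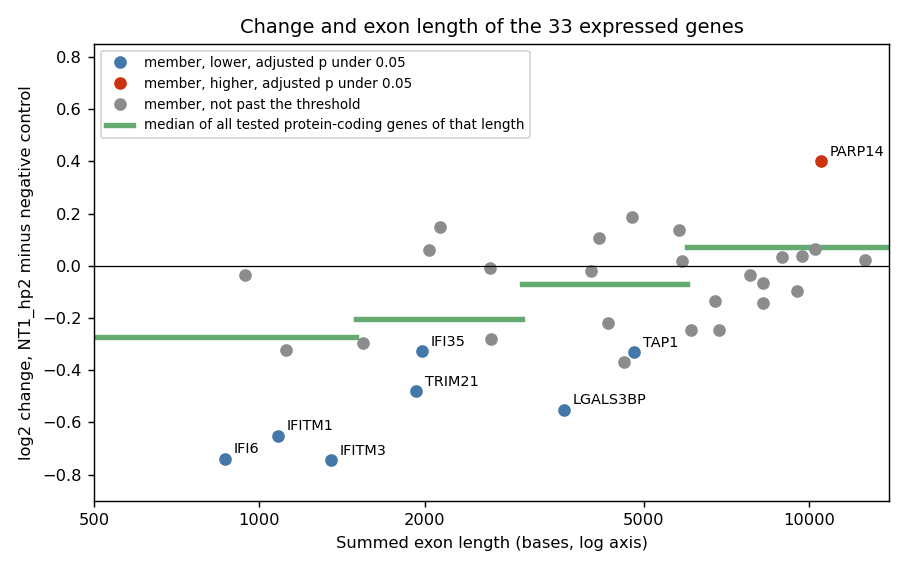
Log2 change against summed exon length (log axis) for the 33 tested genes, with green bars for the median of all tested protein-coding genes in each of 4 length classes. IFI6, IFITM1 and IFITM3 lie near −0.7 at 865 to 1348 bases, where the median of all genes is −0.27, and PARP14 lies at 0.40 and 10495 bases.

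A smooth trend of each library with summed exon length and GC content was removed. After that 0 of the 33 members passed the limma test, and 1.6% of all genes did. An unadjusted limma p under 0.05 was reached by 11 members and by 4428 of 16350 genes. IFI6 was then at −0.57, IFITM1 at −0.48, IFITM3 at −0.45, TRIM21 at −0.39, LGALS3BP at −0.23, TAP1 at −0.18 and PARP14 at 0.22, while IFI35 was at −0.039. With the length and GC content of the principal transcript instead, an alternative added after the data were seen, 7 members were lower and 4 higher, against 12.4% and 10.7% of the 12148 genes tested. TAP1 (−0.11) and IFI35 (−0.0027) did not pass there, IFIT1 (−0.45) and SAMD9 (−0.53) fell, and ISG15 (0.45), IRF7 (0.36) and IFI27 (0.50) rose with PARP14 (0.26). LGALS3BP, IFI6, IFITM1, IFITM3 and TRIM21 fell in that fit as well.

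With 1 library left out, a group of 1 library is assumed to vary like the other group. The log2 changes then ran from −0.97 to −0.52 for IFITM3, from −0.79 to −0.51 for IFITM1, from −0.59 to −0.51 for LGALS3BP and from 0.33 to 0.47 for PARP14. Without negative control replicate 3, 4 members passed the limma test (LGALS3BP, IFITM1, IFITM3 and TRIM21, all lower), beside 11.8% of all genes. No member passed without negative control replicate 1, NT1_hp2 replicate 2 or NT1_hp2 replicate 3, where 0.0%, 0.0321% and 0.0834% of all genes did and 9, 8 and 10 members had an unadjusted p under 0.05. With the tested genes held fixed, which was added after the data were seen, none passed in any of the 4 omissions, beside at most 0.00611% of all genes, and 8 to 12 members had an unadjusted p under 0.05. Without the filter on low values 0 members passed and 0.0% of all genes. There 10 of 42 members and 6778 of 36608 genes had an unadjusted limma p under 0.05. Without robust shrinkage of the variances 4 members passed (PARP14, LGALS3BP, IFITM1 and IFI6) and 11.9% of all genes. TAP1 and IFI35 did not pass under upper-quartile scaling or library totals, which left 6 members beside 17.8% and 17.5% of all genes. With a change of at least 1.5-fold required as well, 3 members passed (IFITM1, IFITM3 and IFI6) and 4.86% of all genes.

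The sign of the change held in all 15 alternatives for each of the 8 genes, and the plot of alternatives gives each value. Many of these could not turn it. Other filters, protein-coding genes alone and plain shrinkage refit the same log2 change. Omission of a library or another pseudocount cannot turn a gene whose groups do not overlap, as in all 8. Only scalings, limma-voom and trend removal could have turned the sign. Tested among protein-coding genes alone, 11 members were lower and 1 higher, beside 24.2% and 14.6% of those genes, with BST2, STAT2, IFITM2 and IFIT1 added to the decreases. With limma-voom on recovered reads 10 members passed, 9 of them lower, beside 34.3% of all genes.

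**Figure D5:**
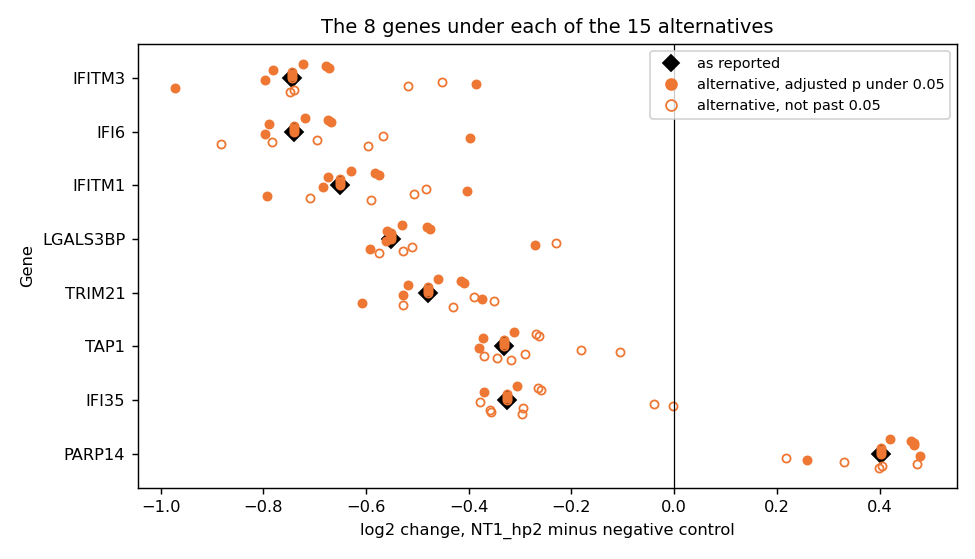
Log2 change of the 8 genes as reported (black diamond) and under each of 15 alternatives (circles, filled where the limma adjusted p is under 0.05). All circles of the 7 lower genes lie below 0 and those of PARP14 above it, and the circle of IFI35 nearest to 0 is at −0.0027.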

How the data were processed

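The authors deposited 1 table per library of values per Ensembl gene. These deposited values are treated as FPKM, which was inferred from the numbers since headers name only gene and library. The build is GRCh38.p12, per the submitters' processing notes; no source used here names aligner, counter or scaling. The NEBNext Ultra RNA kit, per the labels' protocols, does not mark strand, so reads of genes that overlap on opposite strands cannot be told apart. Multiplied by summed exon length in GENCODE 29, 100% of values above 0 were whole multiples of 1 step per library within 0.01, which gave reads for 58735 of 58736 features (all but EGFP). On a gene of 1 kilobase, 3 reads amount to 0.208 to 0.239 FPKM, for counting error only. No 2 files were identical, and replicates differed by more than sampling noise (chi-square per degree of freedom 2.69 and 5.68).

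Genes with at least 1 FPKM in 2 libraries were compared as log2(FPKM + 1), which understates changes of low genes, with limma 3.58.1 (intensity trend, robust shrinkage, no covariate) in R 4.3.3, adjusted over all tested genes. Length and GC trends were fitted with mgcv 1.9.3. Read ratios carry 95% exact binomial intervals. Members, gene lists and tests were chosen with earlier results of these data known. Values per library are given for members that passed, the 8 most abundant, the 8 expressed with the largest change and STAT2, IRF1, IRF7 and IRF9; further members with values, and CXCL10, were chosen after values were seen. Some listed genes are not reported here. Alternatives were other scalings, filters, pseudocount, shrinkage, limma-voom on recovered reads, protein-coding genes only, a 1.5-fold minimum, trend removal and omission of each library.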

Additional observations from a re-analysis of the deposited data

How the results depend on the processing

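Of all genes 2278 passed as reported (818 higher, 1460 lower), with a split of 1484 and 1428 under upper-quartile factors and 1531 and 1327 under library totals. The count was 0 without the filter, 3647 with at least 1 FPKM in all 4 libraries, 4716 for protein-coding genes, 5617 with limma-voom, 261 after trend removal with summed exon length, 795 with a 1.5-fold minimum, and 0 to 1854 without 1 library. With tested genes held fixed, an alternative added after the data were seen, omission left 0 to 1. Of the members 8 passed as reported, 12 among protein-coding genes alone, 10 with limma-voom, 11 after trend removal with principal transcripts, 6 with upper-quartile factors or library totals, 0 without the filter, 4 without robust shrinkage (PARP14, LGALS3BP, IFITM1 and IFI6), 0 after trend removal with summed exon length, 3 with a 1.5-fold minimum and 0 to 4 without 1 library (0 to 0 with tested genes held fixed). Without the filter limma gave 6778 genes at an unadjusted p under 0.05, and the omissions gave 3317 to 6002 (3315 to 5836 with tested genes held fixed). The cause was not tested. None of the 8 genes changed sign in the 15 alternatives, but only scalings, limma-voom and trend removal could have turned them, because their groups do not overlap. Direction turned only in members that did not pass as reported. That contrast is no separate result, since most of those members had overlapping groups. With median-of-ratios scaling IRF7 was at 0.010 and IFIT5 at 0.0023. With upper-quartile factors IRF1 was at 0.0099, IRF7 0.053, IFIT5 0.046 and ISG15 0.030, and with library totals at 0.013, 0.058, 0.052 and 0.036. After trend removal with summed exon length IRF1 was at 0.078, IRF7 0.39, ISG15 0.28, DTX3L −0.062, PARP9 −0.12, SP100 −0.17, IFI44 −0.064 and IFI44L −0.23. With principal transcripts IRF1 was at 0.079, IRF7 0.36, ISG15 0.45, DTX3L −0.097, PARP9 −0.039, IFITM2 0.017, BST2 0.0093, SP100 −0.045, IFI44 −0.053 and IFI44L −0.17. Without 1 library the ranges were −0.15 to 0.076 for IRF1, −0.16 to 0.14 for IRF7, −0.040 to 0.34 for USP18, −0.086 to 0.050 for IFIT5, −0.020 to 0.10 for ADAR, −0.14 to 0.0097 for ZC3HAV1, −0.31 to 0.039 for DDX60, −0.21 to 0.14 for ISG15, −0.084 to 0.13 for SP100, −0.11 to 0.23 for IFI44 and −0.067 to 0.20 for IFI44L. With thresholds of 0.5 and 2 FPKM, 34 and 25 members counted as expressed, and 30 of 36 member promoters had an ISRE core with 1 mismatch allowed (37.7% of all genes). No paired analysis was possible because the groups share 1 replicate number only. Depth limits the 9 members under 1 FPKM.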
